A study of Mus musculus with 6 samples.

Results

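Translation factors and aminoacyl-tRNA synthetases are the genes examined here in colonies grown from mouse pancreatic progenitor cells. Members were all rows of the deposited table whose symbol begins with Eif and a digit from 1 to 6, begins with Eef and 1 or 2, or is a letter followed by ars or ars2. This rule reads names only and took 95 of 11164 genes, of which 61 were factors or proteins named for a factor and 34 were synthetases. The synthetases were 17 genes whose symbol lacks a final 2, called cytosolic here, and 17 with it, called mitochondrial. These names follow the symbol, and whether 1 gene serves both compartments was not examined. Gars, Kars and Qars have no member ending in 2 for the same amino acid. Cells with high surface CD133 (the protein of Prom1) and low CD71 had been sorted from the pancreas of C57Bl/6 mice aged 2 to 4 months, infected overnight with lentivirus and kept under puromycin in methylcellulose and Matrigel with serum, conditioned medium, activin B, exendin-4, nicotinamide and RSPO1. Colonies of 3 weeks gave poly(A)-selected RNA for sequencing. All 3 groups shared these conditions: the control carried 1 shRNA that matches no mammalian gene, the Glis3 knockdown a pool of 5 shRNA clones against Glis3, a transcription factor, and the CD133 knockdown a pool of 5 clones against CD133. Each group had 2 libraries, titled replicates 1 and 3 and called library 1 and library 3 here. The control therefore differed from both knockdowns in the number of shRNA clones as well as in the target, and these cannot be told apart.

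Protein synthesis starts when initiation factors bring the initiator tRNA, the small ribosomal subunit and the mRNA together at a start codon. Elongation factors then deliver each charged tRNA (eEF1A, recharged by the eEF1B subunits) and move the ribosome along the mRNA (eEF2), while the synthetases join every amino acid to its tRNA. The cytosol and the mitochondrion each need a set of charged tRNAs, and all of these enzymes are encoded in the nucleus, in many cases by a separate gene for each compartment. The exocrine pancreas is known for its very high rate of protein synthesis, and the kinase PERK, encoded by the member Eif2ak3, is known to be needed for the health of pancreatic secretory cells.

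Library depth, read from the steps between low values, was 25.8 to 29.2 M reads. The targeted genes followed the labels: Glis3 was at 26.1 and 24.2 RPKM (reads divided by gene length and by library size) in the controls and at 13.3 and 11.96 in its knockdown, and Prom1 was at 191 and 203 RPKM in the controls and at 88.0 and 96.0 in the CD133 knockdown. The labelled cell type was checked against markers. All 8 ductal markers examined were in the table, at 31.4 RPKM or more in each control library, while 1 of 6 acinar markers (Cela1, 0.49 to 1.06 RPKM), 1 of 5 blood markers (Cd68, 5.12 to 6.39 RPKM) and 3 of 6 endocrine markers (Gcg, Sst and Chga, none above 8.15 RPKM) were. In the CD133 knockdown the ductal markers Krt19, Sox9 and Cdh1 rose (log2 fold changes of 0.66, 0.41 and 0.35). Spp1 and the target Prom1 fell there (-0.87 and -1.09). The summed level of the 8 ranged from 7997 to 8364 RPKM in the controls, from 5882 to 6954 in the Glis3 knockdown and from 5135 to 5925 in the CD133 knockdown. Spp1 carried that sum: without it, the other 7 summed to 1507 and 1631 RPKM in the controls, 1742 and 1714 in the Glis3 knockdown and 2007 and 1723 in the CD133 knockdown. Of mesenchymal markers 1 of 6 was in the table, the matrix gene Fn1, which fell from 112 and 112 RPKM to 53.5 and 56.3 in the Glis3 knockdown and to 84.7 and 87.8 in the CD133 knockdown, and of endothelial markers 0 of 4. The part of these shifts in the results was not tested, and in whole colonies fewer cells of a type and less RNA per cell cannot be told apart. Nothing in the labels tells whether 2 libraries of 1 group had separate mice or cultures as their source, so each p-value measures the spread of these libraries alone. In every group 1 library held Y-linked RNA and the other none or almost none (values beside eIF2), so its 2 libraries did not repeat 1 RNA source.

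RPKM is scaled by gene length, so levels can be compared between genes. In control colonies the median member level was 32.3 RPKM for factors and 14.5 RPKM for synthetases. The cytosolic synthetases had a median of 37.5 RPKM, from 12.6 for Cars to 119 for Nars, and the mitochondrial ones 5.70 RPKM, from 1.64 for Mars2 to 43.3 for Lars2. Elongation factors stood highest. Eef1a1, which encodes the carrier of charged tRNAs, had a control mean of 4084 RPKM and held rank 3 among all genes in every library, with 1.472% and 1.504% of all RPKM in the controls. The best expressed gene of each other role was Eif1 (288 RPKM, start codon selection), Eif2s3x (76.4, the gamma subunit of eIF2, which carries the initiator tRNA), Eif2b5 (27.5, the catalytic subunit of the exchange factor eIF2B), Eif3h (209, a subunit of the scaffold eIF3), Eif4a1 (196, the helicase of the cap-binding complex eIF4F), Eif5a (153, which helps the ribosome over difficult peptide bonds) and Eif4ebp2 (60.4, an inhibitor of the cap-binding protein). At the lower end, Eif4e3, a relative of the cap-binding protein, had a control mean of 0.88 RPKM. All 95 members reached a mean of 1 RPKM over the 6 libraries and were among the 10829 genes tested.

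**Figure D1:**
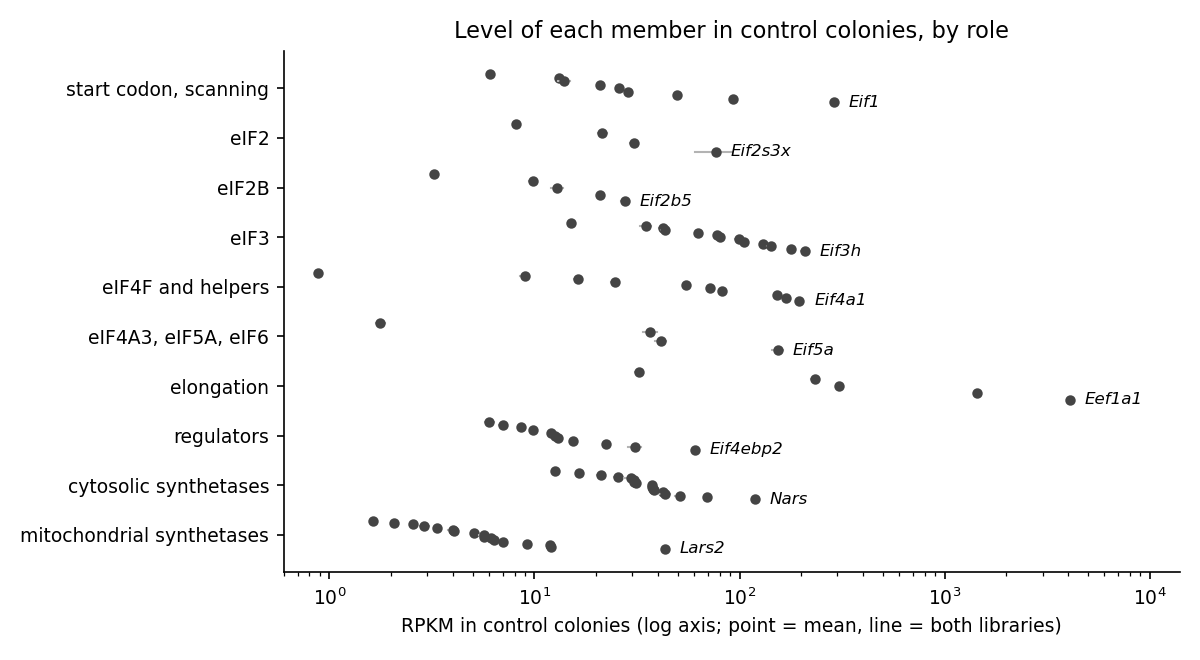
Mean RPKM of each of the 95 members in the control colonies (log axis), by role. Points are means and grey lines join the values of both control libraries (no line is drawn for Eif2s3y, which was at 0.01 RPKM in one of them). The gene with the highest mean of each role is named, from Eif2b5 at 27.5 RPKM to Eef1a1 at 4084 RPKM. The mitochondrial synthetases sit mostly below the cytosolic ones, with Lars2 the highest of them.

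In the Glis3 knockdown, 1 of the 95 members passed the threshold (limma with Benjamini-Hochberg adjustment over all tested genes, adjusted p under 0.05), where 12.9% of all tested genes did. It was a factor gene, Eif2ak3, which rose, as 8.39% of all tested genes did, while 4.53% fell. None of the 34 synthetases passed. An unadjusted p under 0.05 (limma) was found for 13 of them and for 15 of the 61 factors. It was also found for at least the 12.9% of all tested genes that passed, and the full share was not computed. Counts at an unadjusted p, here and below, are therefore no sign of a shift among members. In the CD133 knockdown 12 of 95 members passed, against 11.8% of all tested genes. Of the 61 factors, 6 fell and 1 rose, and of the 34 synthetases, 1 fell and 4 rose. Across all tested genes 3.64% fell and 8.16% rose, so the calls among factors lay mostly on the side that was less common in the table. Set as lists, factors and synthetases had medians close to 0 in both comparisons: the median log2 fold change was 0.036 for factors and -0.035 for synthetases in the Glis3 knockdown, and -0.006 and 0.005 in the CD133 knockdown, beside 0.044 and 0.043 for all tested genes. All fold changes are of RPKM + 1 in log2 units, so the change of a gene near or below 1 RPKM comes out smaller than it is. Single members moved little. The median size of change without regard to sign was 0.088 for factors and 0.129 for synthetases in the Glis3 knockdown (0.113 for all genes), and 0.109 and 0.128 in the CD133 knockdown (0.112 for all genes). A change beyond 0.5 in either direction was seen in 0 and 1 members, against 6.17% and 5.22% of all genes. The lists were less even inside than their medians show. By role, the medians of elongation factors and cytosolic synthetases lay below 0 and those of mitochondrial synthetases above it. Quantile normalization gave the mitochondrial set a median of -0.013 in the CD133 knockdown. It also gave elongation factors smaller shifts, with medians of -0.072 in the Glis3 knockdown and -0.172 in the CD133 knockdown.

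**Figure D2:**
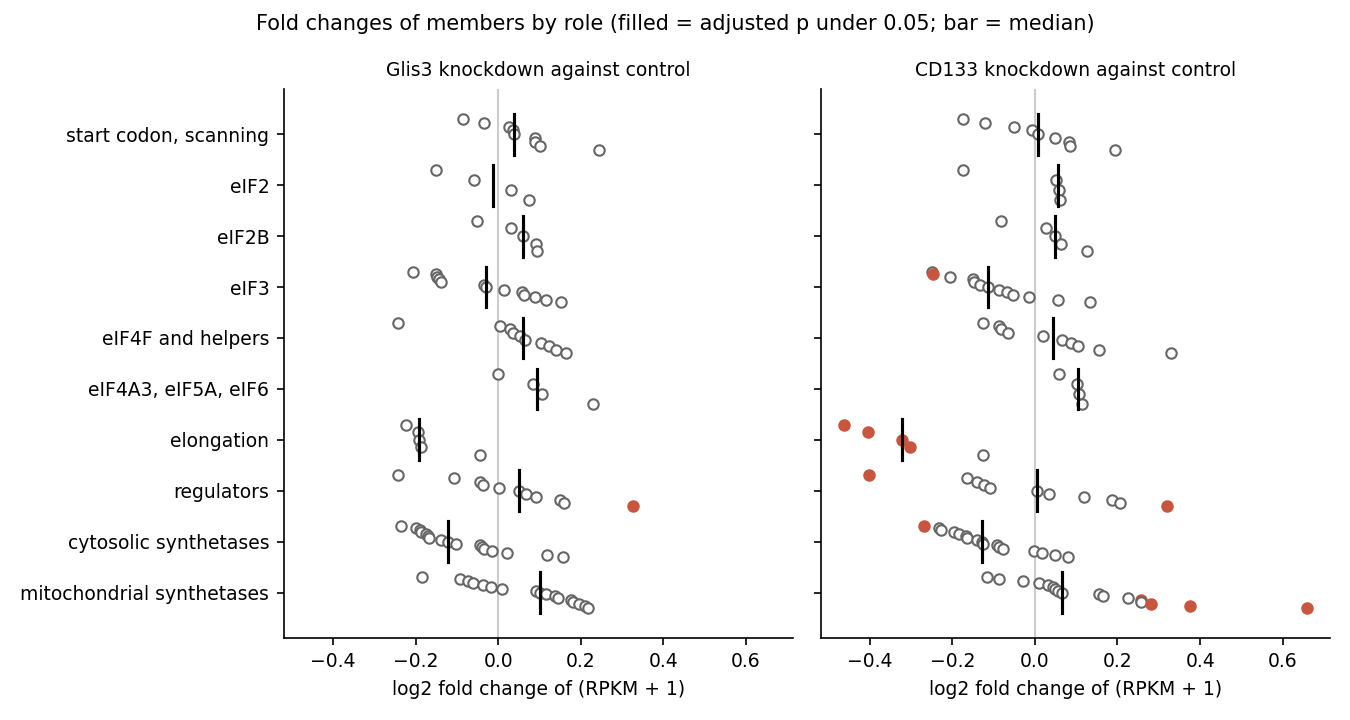
Log2 fold change of (RPKM + 1) of each member against control, by role, in the Glis3 knockdown (left) and the CD133 knockdown (right). Filled points had an adjusted p under 0.05 (limma), and black bars are role medians. Elongation factors have medians of -0.19 and -0.32, cytosolic synthetases -0.12 and -0.13, and mitochondrial synthetases 0.10 and 0.065. Under quantile normalization elongation factors have -0.072 and -0.172, and mitochondrial synthetases have -0.013 in the CD133 knockdown.

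Elongation factors held the clearest shift. With CD133 knocked down, 4 of the 5 in the table fell, against 3.64% of all tested genes, and the fifth, Eef1d, did not pass. For all 5, both libraries lay below both controls, which was so for 22.1% of all tested genes. Eef1a1 was at 3969.6 and 4199 RPKM in control libraries 1 and 3, at 3641 and 3528 in the Glis3 knockdown and at 3027 and 3145 in the CD133 knockdown. The 3 groups did not overlap, and the CD133 knockdown was lowest. Its level there was 75.6% of the control mean (log2 fold change -0.40, standard error 0.094, 95% interval -0.63 to -0.18, adjusted p = 0.0413 by limma). The log2 fold change in the Glis3 knockdown was -0.19 (adjusted p = 0.229). Its relative Eef1a2, the form of muscle and neurons, is not analysed here.

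Eef1b2 encodes the eEF1B subunit that recharges eEF1A with GTP. It was at 224 and 240.1 RPKM in the controls, 200.1 and 197 in the Glis3 knockdown and 160.2 and 176 in the CD133 knockdown, again with no overlap between the groups. Its log2 fold change was -0.46 (standard error 0.07, adjusted p = 0.0174) in the CD133 knockdown and -0.22 (adjusted p = 0.0831) in the Glis3 knockdown. Eef1g, the structural subunit of the same complex, was at 296 and 313 RPKM in the controls, 269 and 264 in the Glis3 knockdown and 242 and 245 in the CD133 knockdown. It fell by 0.32 on the log2 scale in the CD133 knockdown (adjusted p = 0.024), and its value in the Glis3 knockdown was -0.19 (adjusted p = 0.0792). Eef2, the translocase, was at 1425 and 1441 RPKM in the controls, 1272 and 1233 in the Glis3 knockdown and 1148 and 1176.5 in the CD133 knockdown. It fell by 0.30 in the CD133 knockdown (adjusted p = 0.0455) and had a value of -0.19 in the Glis3 knockdown (adjusted p = 0.131). Eef1d, a further exchange subunit, was the least separate, with its Glis3 knockdown range partly within that of the controls. It was at 31.1 and 33.5 RPKM in the controls, 31.0 and 31.4 in the Glis3 knockdown and 28.9 and 30.0 in the CD133 knockdown (log2 fold change -0.125, adjusted p = 0.189).

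Together the 5 genes made up 2.20% and 2.23% of all RPKM in the controls, 1.97% and 1.96% in the Glis3 knockdown and 1.72% and 1.77% in the CD133 knockdown. The median log2 fold change of the 5 was -0.19 in the Glis3 knockdown and -0.32 in the CD133 knockdown, where the 1603 tested genes within the same span of control levels had medians of 0.013 and 0.01. These calls rested on having all libraries. Without control library 1 or control library 3, the median of the 5 in the CD133 knockdown was -0.36 and -0.29. None of the 4 calls was then left, nor that of any other tested gene in this comparison. Without CD133 library 1 none passed, and without CD133 library 3 only Eef1b2 did (adjusted p = 0.0342). Leaving out either Glis3 library, which enters only through the shared spread, ended the calls of Eef1a1 and Eef2 (adjusted p from 0.0868 to 0.0998). The log2 fold changes themselves lay between -0.53 and -0.40 for Eef1b2 and between -0.44 and -0.36 for Eef1a1 when 1 library was left out. Under quantile normalization the value of Eef1a1 is 0 by construction, because the gene held the same rank in every library. The median of the 5 under that scaling was -0.072 in the Glis3 knockdown and -0.172 in the CD133 knockdown. In the CD133 knockdown 2 of the 5 then passed, and the call of Eef2 was lost as well.

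**Figure D3:**
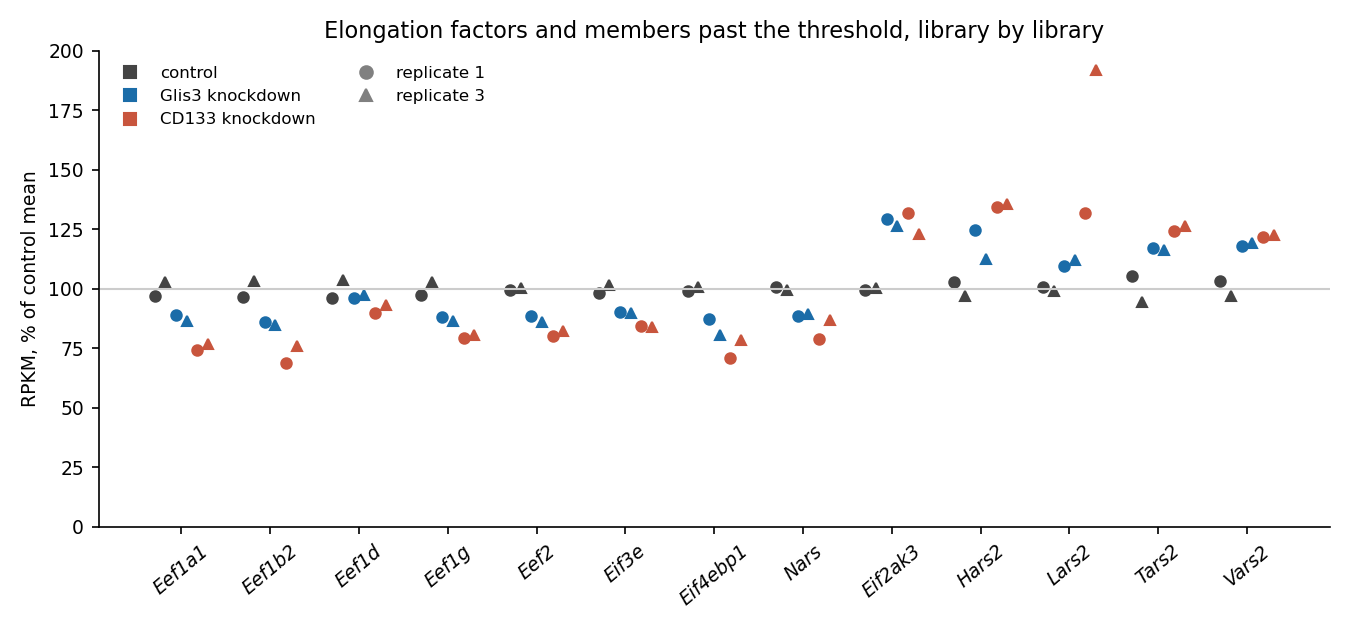
RPKM of the 5 elongation factors and of the other members past the threshold, each as a percentage of its control mean, in all 6 libraries (circles, library 1; triangles, library 3). Eef1a1, Eef1b2, Eef1g and Eef2 step down from control to Glis3 knockdown to CD133 knockdown with no overlap, and Lars2 is the 1 gene whose CD133 knockdown libraries stand far apart (57.1 and 83.0 RPKM).

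The elongation factor genes and their promoters are placed on GRCm38 as follows: Eef1a1 at chr9:78478449-78489151 (minus strand), Eef1b2 at chr1:63176825-63180486 (plus), Eef1g at chr19:8967041-8978479 (plus) and Eef2 at chr10:81176631-81182498 (plus). Promoter sequence was taken from RefSeq (GRCm38.p6), which matched 72 of the 95 members. The windows below, from 80 bases before to 20 bases after the annotated start, are shown because these genes fell together in the CD133 knockdown. Capitals mark matches, on either strand, to an E-box, an ETS core, a TATA box, an NRF1 palindrome or the Atf4-type element described with the synthetases. Windows are chr9:78481705-78481804 (minus strand), chr1:63176751-63176850 (plus) and chr10:81176551-81176650 (plus).
Eef1a1: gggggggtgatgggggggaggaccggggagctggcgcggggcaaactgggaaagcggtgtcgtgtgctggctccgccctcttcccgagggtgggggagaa
Eef1b2: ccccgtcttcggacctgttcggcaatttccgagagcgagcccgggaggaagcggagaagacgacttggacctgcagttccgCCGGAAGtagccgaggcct
Eef2: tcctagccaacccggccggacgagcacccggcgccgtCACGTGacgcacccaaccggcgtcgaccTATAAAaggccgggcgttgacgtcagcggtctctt
The 3 windows shared no motif of the set. Eef2 held an E-box and a TATA box, Eef1b2 an ETS core at the start site, and Eef1a1 none. Over the whole promoter of 300 bases, an E-box (CACGTG) was found in 20.4% of the 49 factors with a sequence and in 10.7% of the 8788 table genes that have one. The ETS core searched was CCGGAAG, present in 30.6% of the factor promoters and in 19.7% of those of table genes. A TATA box was counted where the letters TATAAA occurred, in 10.2% of the factor promoters and 6.6% of those of table genes. The NRF1 palindrome was found in 12.2% and 11.4%. A match is a stretch of letters and no measure of binding, and no match of 1 motif overlapped that of another in any member.

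Among the initiation factors, eIF3 was the group nearest to the elongation factors. Of its 13 subunits in the table, 11 had a fold change below 0 in the CD133 knockdown (38.6% of all tested genes did). Both libraries were below both controls for 8 (22.1% of all tested genes), and 1 fell (3.64% of all tested genes). That gene was Eif3e, at 176 and 182 RPKM in the controls, 161 and 160.2 in the Glis3 knockdown and 151 and 150.03 in the CD133 knockdown. The groups were separate, and the log2 fold change was -0.25 (standard error 0.053, adjusted p = 0.0331) in the CD133 knockdown and -0.15 (adjusted p = 0.108) in the Glis3 knockdown. The call was lost without either control library and without either CD133 library (adjusted p from 0.0952 to 0.18). Eif3h was at 199 and 219 RPKM in the controls and 174.5 and 177 in the CD133 knockdown (log2 fold change -0.25, adjusted p = 0.0523). Of the 13 subunits, 7 lay below 0 in the Glis3 knockdown, none passed (5 had an unadjusted p under 0.05), and the smallest p was that of Eif3f (-0.21, adjusted p = 0.0693). Subunits of the eIF3 core did not lie on 1 side: Eif3a had a value of -0.15 and Eif3b of 0.055 in the CD133 knockdown. The paralog Eif3j2 is not analysed here, and Eif3j1 had values of 0.12 and 0.13.

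Several elongation factor and eIF3 genes belong to the TOP mRNAs, whose 5′ end carries a pyrimidine tract through which mTORC1 controls their translation. Of 10 members on a list of such mRNAs, 9 lay below 0 in the Glis3 knockdown with none past the threshold (6 had an unadjusted p under 0.05), and all 10 lay below 0 in the CD133 knockdown, where 5 fell, against 38.6% and 3.64% of all tested genes. The median was -0.17 and -0.25. Rpl genes, the proteins of the large ribosomal subunit and TOP mRNAs as well, had medians of -0.15 and -0.35, with 5 of 43 and 35 of 43 fallen, where 4.53% and 3.64% of all tested genes fell. Of the 5 TOP genes that fell, 4 are the elongation factors above, so these counts share genes. The list was chosen with earlier results of these data known. It holds the elongation factors analysed above, Eif3a, Eif3e, Eif3f, Eif3h and Eif4b, so its counts largely repeat those above and are no separate support. Whether other members are TOP mRNAs was not examined. Without control library 1 or 3 no gene of any list passed in the CD133 knockdown. Of the 5 TOP calls, 0 were left without CD133 library 1, 1 without CD133 library 3 and 3 without either Glis3 library.

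The other initiation groups stayed near 0. For start codon selection and scanning, 0 of 9 members passed in either knockdown (1 and 3 had an unadjusted p under 0.05). Eif2d, which can deliver tRNA to the ribosome without eIF2, had the smallest p in the Glis3 knockdown: 5.91 and 6.29 RPKM in the controls, 7.63 and 7.19 in the Glis3 knockdown and 6.95 and 7.29 in the CD133 knockdown. Its groups did not overlap with the control, but the test stayed just above the threshold (log2 fold change 0.24, adjusted p = 0.0518). Eif1a had the smallest p in the CD133 knockdown (-0.17, adjusted p = 0.0669), while its X-linked relative Eif1ax had 0.008 there and 0.10 in the Glis3 knockdown. Eif1, the most abundant of the group, had -0.086 and -0.051.

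None of 5 eIF2B subunits passed in either knockdown, with 0 at an unadjusted p under 0.05. The smallest p values were those of Eif2b4 in the Glis3 knockdown (0.092, adjusted p = 0.402) and Eif2b2 in the CD133 knockdown (0.125, adjusted p = 0.209). Of 10 members of eIF4F and its helpers, 0 passed in either comparison and 2 in each had an unadjusted p under 0.05. Those of smallest p were Eif4g3, a scaffold, in the Glis3 knockdown (-0.24, adjusted p = 0.123) and Eif4e3 in the CD133 knockdown (0.33, adjusted p = 0.0696). Eif4e3 was at 0.86 and 0.90 RPKM in the controls, 0.94 and 1.16 in the Glis3 knockdown and 1.45 and 1.28 in the CD133 knockdown, with the CD133 knockdown above the other groups. The helicase paralogs Eif4a1 and Eif4a2 had values of 0.054 and 0.005 in the Glis3 knockdown and of -0.125 and -0.083 in the CD133 knockdown. Among eIF4A3, the eIF5A pair and eIF6, no gene passed (1 and 0 with an unadjusted p under 0.05). Eif5a2 had 0.23 in the Glis3 knockdown (adjusted p = 0.0981) beside 0.11 for the far more abundant Eif5a, and Eif6, which keeps the large subunit apart, had 0.115 in the CD133 knockdown (adjusted p = 0.385).

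For eIF2 itself no subunit passed (1 in each knockdown had an unadjusted p under 0.05), and Eif2s2, the beta subunit, had the smallest p in both knockdowns (-0.15, adjusted p = 0.122, and -0.17, adjusted p = 0.0864). The gamma subunit showed a difference that did not follow the groups. Mice have an X-linked gene, Eif2s3x (chrX:94188707-94212862, minus strand), which is known to escape X inactivation, and a Y-linked copy, Eif2s3y (chrY:1010543-1028847, plus strand). Eif2s3y was at 0.01 RPKM in control library 1 and listed at 0 in Glis3 library 3 and CD133 library 3, and was at 16.3, 17.3 and 17.8 RPKM in control library 3, Glis3 library 1 and CD133 library 1. The other Y-linked genes Ddx3y, Kdm5d and Uty followed the same split, with a sum of 0 in the first 3 libraries and of 24.0, 25.2 and 22.9 RPKM in the rest. Eif2s3x was higher where Eif2s3y was missing, at 92.0, 105 and 96.4 RPKM against 60.7, 59.2 and 63.0 RPKM.

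Each group thus held 1 library with Y-linked RNA and 1 without, and the replicate number did not line up with it between control and knockdowns. Comparing only libraries alike in Y-linked RNA, a split chosen after its values were seen and with no test, gave medians of the same sign as the full comparison for elongation factors and both classes of synthetase in each knockdown against control. Each such difference is 1 library against 1. For every gene both differences average to its full log2 fold change, so the same sign is no separate support. The median of the elongation factors in the CD133 knockdown was -0.37 between the libraries with Y-linked RNA and -0.28 between those without, and 5 of 5 were lower in both. For the Glis3 knockdown the medians were -0.21 and -0.17, and 4 of 5 were lower in both. Cytosolic synthetases gave -0.16 and -0.096 in the CD133 knockdown and -0.088 and -0.17 in the Glis3 knockdown. Mitochondrial synthetases gave 0.088 and 0.105 in the CD133 knockdown and 0.039 and 0.11 in the Glis3 knockdown.

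**Figure D4:**
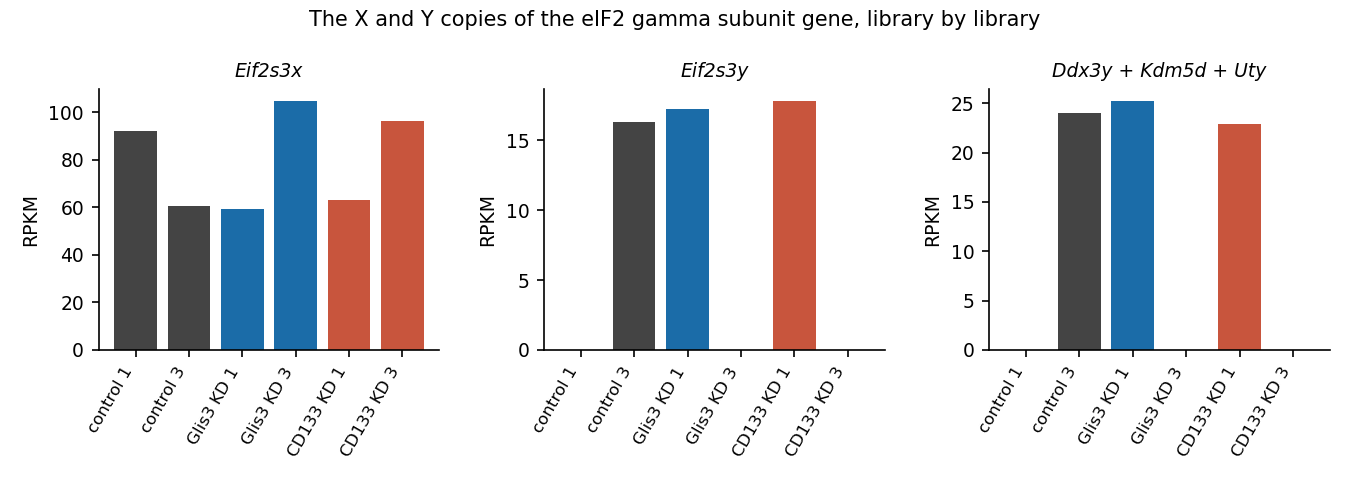
RPKM of Eif2s3x, of Eif2s3y and of the summed Y-linked genes Ddx3y, Kdm5d and Uty in each library (KD, knockdown). Eif2s3y and the Y-linked sum are present in control library 3, Glis3 library 1 and CD133 library 1 (16.3 to 17.8 and 22.9 to 25.2 RPKM), and Eif2s3x is highest in the other 3 libraries (92.0 to 105 RPKM).

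Regulators named for a factor gave the 1 gene that rose in both knockdowns. Eif2ak3 (chr6:70844515-70905245, plus strand) encodes PERK, the endoplasmic reticulum kinase that phosphorylates eIF2 under protein folding stress. It was at 9.78 and 9.87 RPKM in the controls, 12.7 and 12.4 in the Glis3 knockdown and 12.95 and 12.1 in the CD133 knockdown. All 4 knockdown libraries were above both controls. The log2 fold change was 0.33 (standard error 0.057, adjusted p = 0.0177) in the Glis3 knockdown and 0.32 (adjusted p = 0.022) in the CD133 knockdown, and these comparisons share their control libraries. Without control library 1 or 3 the adjusted p was 0.1 and 0.0867 in the Glis3 knockdown, and without Glis3 library 3 it was 0.0551. For the CD133 knockdown it was 0.108 and 0.0959 without a control library, and 0.146 and 0.0513 without CD133 library 1 and CD133 library 3. The other eIF2 kinases did not pass: in the CD133 knockdown Eif2ak1 had 0.033, Eif2ak2 0.12 and Eif2ak4, which senses uncharged tRNA, -0.165.

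Eif4ebp1 (chr8:27260329-27276674, plus strand) encodes 4E-BP1, which holds back the cap-binding protein until mTORC1 phosphorylates it, and is a known target of Atf4. It was at 22.1 and 22.5 RPKM in the controls, 19.5 and 18.0 in the Glis3 knockdown and 15.9 and 17.5 in the CD133 knockdown. The 3 groups were separate, with the CD133 knockdown lowest. It fell by 0.40 in the CD133 knockdown (standard error 0.068, adjusted p = 0.0209) and had -0.24 in the Glis3 knockdown (adjusted p = 0.0626). Its relative Eif4ebp2 had -0.14 in the CD133 knockdown and 0.16 in the Glis3 knockdown, with neither past the threshold. The Eif4ebp1 call was lost without either control library (adjusted p = 0.099 and 0.0983) and without CD133 library 1 (0.13). Eef2k, the kinase that stops eEF2, had 0.205 in the CD133 knockdown (adjusted p = 0.127). Eif4ebp3 and 4 of the methyltransferases named for eEF1A are not analysed here.

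Cytosolic synthetases lay mostly below 0. In each knockdown 14 of 17 had a fold change below 0 (38.8% of all tested genes in the Glis3 knockdown and 38.6% in the CD133 knockdown), and 11 had both libraries below both controls, where 21.1% (Glis3 knockdown) and 22.1% (CD133 knockdown) of all tested genes did. The medians were -0.12 and -0.13, beside 0.03 and 0.027 for the 4109 tested genes within the same span of control levels. Over the alternatives tried the medians ranged from -0.18 to -0.10 and from -0.18 to -0.099. Single genes rarely passed: 0 of 17 in the Glis3 knockdown (8 with an unadjusted p under 0.05) and 1 of 17 in the CD133 knockdown. Of all tested genes 12.9% and 11.8% passed. The 1 that fell was Nars, for asparagine and the most abundant of the set. It was at 120.1 and 119 RPKM in the controls, 106 and 107 in the Glis3 knockdown and 94.3 and 104 in the CD133 knockdown. The controls stood above all knockdown libraries. The log2 fold change was -0.27 (standard error 0.062, adjusted p = 0.0398) in the CD133 knockdown and -0.17 (adjusted p = 0.123) in the Glis3 knockdown. The call was lost without control library 1 (adjusted p = 0.146), control library 3 (0.121), CD133 library 1 (0.235) or CD133 library 3 (0.059). Mars, for methionine, had the smallest p in the Glis3 knockdown: 37.7 and 37.4 RPKM in the controls, 32.6 and 31.0 in the Glis3 knockdown and 30.1 and 33.6 in the CD133 knockdown (log2 fold changes -0.235 and -0.233, adjusted p = 0.0619 and 0.0642).

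Of the synthetases held in the multi-synthetase complex with their scaffolds, 0 of 11 genes passed in either knockdown (2 and 1 with an unadjusted p under 0.05), and the medians were 0.022 and -0.11. The cytosolic genes on the positive side were Kars, for lysine (0.16 and 0.079), Dars, for aspartate (0.12 and 0.048), Rars, for arginine, in the Glis3 knockdown (0.022) and Qars, for glutamine, in the CD133 knockdown (0.017).

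Many cytosolic synthetase genes are known targets of Atf4, the transcription factor of the amino acid response, so their promoters were searched for the C/EBP-Atf element TGATGNAAN on both strands. It was found in 5 of the 9 cytosolic synthetase promoters matched (55.6%), in 0 of 14 mitochondrial ones, in 1 of 49 factor promoters (2.0%, Eif2s3x) in 2.0% of the 8788 table genes with a promoter and in 4.0% of all 27025 promoters. The windows of the 5 are shown because the element was found among the cytosolic but not the mitochondrial synthetases with a sequence. Capitals mark the match or its reverse complement, and N stands for any base. The windows again run from 80 bases before to 20 after the start. They lie at chr6:55037921-55038020 (plus strand), chr15:11399639-11399738 (minus), chr13:49682050-49682149 (plus), chr8:111033762-111033861 (plus) and chr4:129189823-129189922 (plus).
Gars: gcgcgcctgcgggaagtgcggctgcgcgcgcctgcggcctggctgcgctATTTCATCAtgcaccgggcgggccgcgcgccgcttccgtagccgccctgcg
Tars: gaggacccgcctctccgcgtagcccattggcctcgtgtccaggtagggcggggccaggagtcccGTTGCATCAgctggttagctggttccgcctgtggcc
Iars: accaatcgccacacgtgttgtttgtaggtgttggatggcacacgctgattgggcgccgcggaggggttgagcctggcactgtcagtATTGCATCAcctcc
Aars: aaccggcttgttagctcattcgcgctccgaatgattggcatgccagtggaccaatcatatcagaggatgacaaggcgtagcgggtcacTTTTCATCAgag
Yars: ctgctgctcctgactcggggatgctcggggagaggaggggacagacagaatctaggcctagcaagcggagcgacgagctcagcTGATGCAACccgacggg
The log2 fold changes of these 5 in the CD133 knockdown were -0.18 for Gars, -0.087 for Tars, -0.17 for Iars, -0.165 for Aars and -0.23 for Yars. None passed the threshold (adjusted p from 0.0994 to 0.442 by limma). The median of all 17 cytosolic synthetases there was -0.13. Sars and Kars, whose promoters were matched and held no such element, had -0.20 and 0.079. A link between the element and the fold change was not tested. On a list of Atf4 and its known targets outside the members, 7 of 22 genes fell in the CD133 knockdown (median -0.31) and 1 of 22 in the Glis3 knockdown (median -0.145), where 3.64% and 4.53% of all tested genes fell. The CD133 count was 0 without CD133 library 1 (median -0.19) or without either control library, and 11 without either Glis3 library. The Glis3 count was 5 without Glis3 library 1 and 0 without either control library. Among those past the threshold, the largest falls in the CD133 knockdown were those of Atf5 (-0.78, adjusted p = 0.031), Ppp1r15a (-0.61, adjusted p = 0.0111), whose product reverses the phosphorylation of eIF2, and Slc7a11 (-0.59, adjusted p = 0.0268), a cystine carrier. Asns, the asparagine synthetase gene, was the 1 that fell in the Glis3 knockdown (-0.34, adjusted p = 0.0406). Atf4 mRNA was at 130 and 125 RPKM in the controls, 119 and 100.3 in the Glis3 knockdown and 96.8 and 107 in the CD133 knockdown (log2 fold changes -0.22 and -0.32, adjusted p = 0.159 and 0.0685). On the whole list of 22, 16 lay below 0 and 6 above it in the CD133 knockdown. The highest was Nupr1 (0.38, adjusted p = 0.0672 by limma). A part of Atf4 in these changes was not tested.

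Mitochondrial synthetases lay mostly on the other side. In the CD133 knockdown 14 of 17 had a fold change above 0, where 61.4% of all tested genes did. Both libraries were above both controls for 11 (40.3% of all genes), and 4 rose (8.16% of all genes). In the Glis3 knockdown 11 lay above 0 (61.2% of all genes), 9 had both libraries above both controls (38.5% of all genes), and 0 passed (5 with an unadjusted p under 0.05). The medians were 0.065 and 0.10, against 0.043 and 0.043 for the 9025 tested genes in the same span of control levels. Those of the CD133 knockdown depended on the scaling: median centring gave 0.012 with 10 of 17 above 0, and quantile normalization -0.013 with 8 of 17 above 0.

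Lars2, for leucine and the most abundant of the set (chr9:123366927-123462666, plus strand), rose most. It was at 43.7 and 42.9 RPKM in the controls, 47.4 and 48.5 in the Glis3 knockdown, and 57.1 and 83.0 in the CD133 knockdown. The last 2 lay above all others but far apart from each other (70.1 ± 18.3 RPKM, SD, n = 2). The log2 fold change was 0.66 (standard error 0.153, 95% interval 0.29 to 1.02, adjusted p = 0.0406). It was 0.92 without CD133 library 1 and 0.39 without CD133 library 3, past the threshold in both (adjusted p = 0.048 and 0.0427), and the call was lost without either control library (adjusted p = 0.162 and 0.155). Its value in the Glis3 knockdown was 0.14 (adjusted p = 0.563).

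The other 3 that rose sat at lower levels and changed by less. Hars2, for histidine, was at 5.87 and 5.53 RPKM in the controls, 7.11 and 6.41 in the Glis3 knockdown and 7.65 and 7.73 in the CD133 knockdown, with all groups separate (log2 fold change 0.38, standard error 0.068, adjusted p = 0.0231 in the CD133 knockdown). Hars2 and Hars lie head to head, and 195 bases of their exons overlap on opposite strands. The use of strand by the counter is not given in the sources used here. Vars2, for valine (chr17:35655634-35667592, minus strand), was at 7.28 and 6.84 RPKM in the controls, 8.33 and 8.41 in the Glis3 knockdown and 8.59 and 8.65 in the CD133 knockdown. Its knockdown libraries all lay above the controls, and it rose by 0.26 in the CD133 knockdown (adjusted p = 0.0356), while its value of 0.22 in the Glis3 knockdown stayed just above the threshold (adjusted p = 0.0522). Tars2, for threonine (chr3:95739976-95760206, minus strand), was at 6.00 and 5.39 RPKM in the controls, 6.68 and 6.63 in the Glis3 knockdown and 7.07 and 7.19 in the CD133 knockdown, and rose by 0.28 there (adjusted p = 0.0406). For Hars2, Vars2 and Tars2, leaving out a control library or a CD133 library ended the call (adjusted p from 0.085 to 0.18). The calls of Tars2 and Vars2 were also lost under median centring and quantile normalization.

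The compartments were set side by side within each amino acid, a comparison chosen after values had been seen and given with no test. A gene of each kind was compared for 13 amino acids, and 1 more pair, left out for reasons other than its values, is not analysed here. In the Glis3 knockdown the mitochondrial gene had the higher log2 fold change for 13 of 13, with a median difference of 0.245. For the CD133 knockdown it also did for 13 of 13, with a median difference of 0.34. These counts hold for the pairs compared and do not cover the pair left out. Leucine showed the widest gap (-0.13 for Lars and 0.66 for Lars2), followed by serine (-0.20 for Sars and 0.22 for Sars2) and tyrosine (-0.23 for Yars and 0.17 for Yars2). These order relations do not depend on centring, since both genes of a pair come from the same libraries, and under quantile normalization the count was 13 of 13 in each knockdown. It was 12 of 13 in the CD133 knockdown without control library 3. The 2 comparisons share the control libraries, so they are not separate observations. Low levels are compressed by the added 1 RPKM, and the mitochondrial genes were the lower of the compared pairs for all but leucine.

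**Figure D5:**
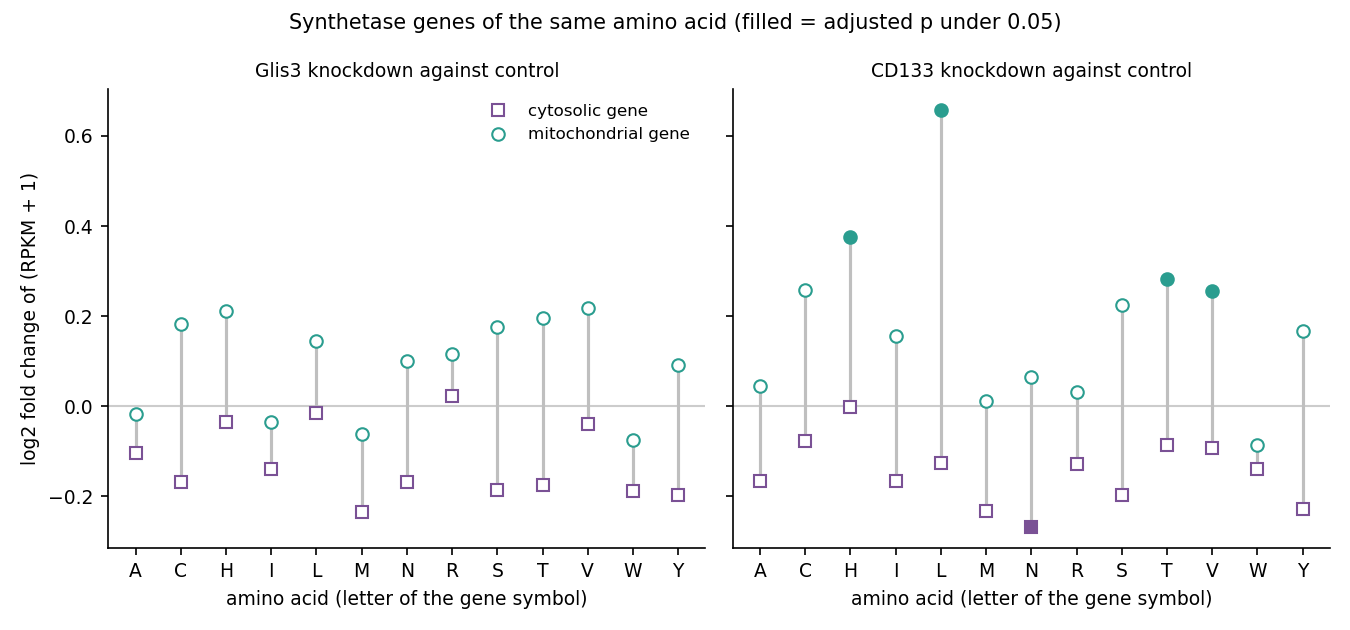
Log2 fold change of (RPKM + 1) for the cytosolic (squares) and mitochondrial (circles) synthetase genes of the 13 amino acids compared, in the Glis3 knockdown (left) and the CD133 knockdown (right). Filled symbols had an adjusted p under 0.05 (limma). The mitochondrial gene lies above the cytosolic one for 13 of 13 amino acids in both, with median differences of 0.245 and 0.34.

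Between the knockdowns, 0 of 95 members passed in limma, against 4.06% of all tested genes (1.61% higher and 2.46% lower in the Glis3 knockdown), and 13 had an unadjusted p under 0.05. All 5 elongation factors were higher in the Glis3 than in the CD133 knockdown in both libraries (27.9% of all tested genes were), with a median log2 difference of 0.13 and a range of 0.080 to 0.24. Eef1b2 had the largest of these (0.24, adjusted p = 0.112), and Eef1a1 had 0.22 (adjusted p = 0.246). Of 13 eIF3 subunits, 12 lay above 0 (50.5% of all tested genes did) and 9 were higher in both libraries. Eif4ebp2 had the largest difference of all factors: 63.5 and 71.95 RPKM in the Glis3 knockdown and 56.3 and 53.2 in the CD133 knockdown (0.30, adjusted p = 0.079), which passed without Glis3 library 1 (0.39, adjusted p = 0.0345). Mitochondrial synthetases lay lower in the Glis3 knockdown in both libraries for 11 of 17 (26.8% of all genes), with a median of -0.062, and Lars2 differed most (-0.51, adjusted p = 0.119, and -0.78, adjusted p = 0.0278, without CD133 library 1). Falls past the threshold in the CD133 knockdown alone are therefore not shown to be particular to it.

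Both knockdowns taken side by side, 21 of the 95 members had all 4 knockdown libraries below both controls, where 11.5% of all tested genes did, and 20 had all 4 above, where 26% did. The 21 included Eef1a1, Eef1b2, Eef1g, Eef2, 5 eIF3 genes (Eif3a, Eif3e, Eif3f, Eif3h and Eif3m), Eif4ebp1 and 8 cytosolic synthetases (Aars, Iars, Mars, Nars, Sars, Vars, Wars and Yars), and no mitochondrial synthetase. The 20 included Eif2ak3, Eif2d, the cap-binding genes Eif4e, Eif4e2 and Eif4e3, and 8 mitochondrial synthetases (Cars2, Hars2, Lars2, Sars2, Tars2, Vars2 and Yars2 among them). Kars was the 1 synthetase of the cytosolic list among the 20, and it has no mitochondrial counterpart among the members.

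Further lists of genes outside the naming rule showed few calls, unlike the Rpl and Atf4 lists above in the CD133 knockdown. Of 19 cytosolic termination, recycling and other factors, 2 rose in each knockdown and none fell, a share near that of all tested genes (8.39% and 8.16% rose). They were Gspt2, a form of the release factor eRF3 (log2 fold changes 0.30 and 0.32, adjusted p = 0.0446 and 0.039), and Mcts1, a partner in the recycling of ribosomes (0.24 and 0.29, adjusted p = 0.0455 and 0.029). Of 11 mitochondrial translation factors, 0 passed in either knockdown (2 and 2 with an unadjusted p under 0.05). Their medians were 0.079 and 0.089, and 9 and 10 of 11 lay above 0 (61.2% and 61.4% of all tested genes did). Of 14 synthetases and scaffolds with other names, 0 passed (1 and 2 with an unadjusted p under 0.05), against 12.9% and 11.8% of all tested genes. On the mTORC1 list 1 of 14 genes (7.1%) passed in each knockdown, a share below that of all tested genes. It was Rragd, a Rag GTPase, which rose in both (0.57 and 0.43). On the list of Myc and its partners 2 and 1 of 9 genes rose. Mxd1, which competes with Myc for Max, rose in both (0.46 and 0.48) and Mxd4 in the Glis3 knockdown (0.27). With lists this short, single genes are no result about the list.

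Counting limits some of these values. With at least 100 shared bases at 95% identity, 41 of the 95 members shared sequence with another annotated gene and 18 with a pseudogene. Eef1a1 shared it with 13 other genes, 9 of them pseudogenes, Eef1g with 4 pseudogenes, Eif3e with 2, and Eef2 and Eef1b2 with 1 each, while no match was found for Nars, Lars2 and Tars2. The search covered the annotated transcripts only. Sequence shared with anything outside them, for these 3 genes as for the others, was not examined. How reads that fit several places were counted is not given in the sources used here. Exons of 19 members overlap a protein-coding gene on the opposite strand. Those of 3 overlap a protein-coding gene on the same strand, among them Aars and Exosc6 over 1326 bases. Overlap with genes of other kinds was not counted. In the sequence search Eif2ak3 matched Gm43292 over 222 bases and Vars2 matched Gm20483 over 130 bases, both in opposite orientation.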

How the data were processed

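RNA was sequenced from 6 colony libraries in 3 groups of 2. RPKM values of 11164 genes were deposited in 1 table, whose lowest row maximum is 1. Per the submitters' processing notes, TopHat2, HTSeq, the build mm10 and bcl2fastq 2.18.0.12 were used, with neither order nor settings. For the annotation, the library total behind RPKM and the use of strand, the answer is not given in the sources used here.

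Values were taken as log2(RPKM + 1), and genes whose 6 libraries averaged 1 RPKM or more (10829) were fitted in 1 limma model (version 3.58.1, R 4.3.3; 3 groups, variance trend, 3 residual and 3.69 prior degrees of freedom, no block). Tests were two-sided, with Benjamini-Hochberg adjustment over all tested genes in each of 3 comparisons and a threshold of 0.05. The code was tested on simulated data with 200 changed genes. Intervals are 95%.

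The members and all gene lists were chosen with earlier results of these data known. Named with values are, per comparison, list and direction, up to 8 members past the threshold, the best expressed member of each role and, where none passed, that with the smallest p, fixed paralog pairs, and up to 3 past the threshold on each related list. Other genes are named after their values were seen, as examples or to complete a count.

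Depth was read from the spacing between low values, of which 56.8% to 62.6% (91 to 103 values a library) came out whole, so it is approximate and no count test was run. Positions and shared sequence come from GENCODE M21 (GRCm38) with blastn 2.17.0, and promoters (300 bases, 250 before the start) from RefSeq (GRCm38.p6).

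Alternatives were pseudocounts of 0.5 and 5, no filter or a mean of at least 5 RPKM, RPKM rescaled to an equal sum, median centring, quantile normalization, no variance trend, a replicate block and leaving out each library. A block with crossed numbers was added after the data were seen. A single synthetase is not reported here by name, and its pair was left out of the comparison by amino acid.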

Additional observations from a re-analysis of the deposited data

How the results depend on the processing

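With 2 libraries a group, most single calls depend on every library being present. In the Glis3 knockdown the count of factors past the threshold (1) was 2 with RPKM rescaled to an equal sum, 3 with median centring, 2 with quantile normalization and 0 to 1 when 1 library was left out, and the count of synthetases (0) was 2 with median centring (Mars and Wars). In the CD133 knockdown the count of synthetases (5) was 1 with quantile normalization. Leaving out 1 library gave 0 to 5 factors (7 with all) and 0 to 5 synthetases, with 0 of both without control library 1 or control library 3. Between the knockdowns it gave 0 to 1 factors and 0 to 1 synthetases. Of 16 alternatives, Eef1a1 and Eef2 passed in the CD133 knockdown in 7 each, Tars2 and Vars2 in 9 each and Eef1b2 in 13.

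The medians of the lists were near 0, and some changed sign. That of the synthetases in the Glis3 knockdown (-0.035) was -0.026 with a pseudocount of 5, -0.02 rescaled, -0.092 with median centring, -0.064 with quantile normalization and -0.035 to -0.017 with 1 library left out. That of the factors (0.036) was -0.021 with median centring and 0.003 to 0.072 with 1 library left out. In the CD133 knockdown the synthetases (0.005) gave -0.078 at 5 RPKM or more, 0.034 rescaled, -0.048 with median centring, -0.053 with quantile normalization and -0.024 to 0.033 with 1 library left out, and the factors (-0.006) gave -0.059 with median centring. Between the knockdowns the synthetases (-0.018) gave 0.011 at 5 RPKM or more, -0.031 rescaled, -0.003 with quantile normalization and -0.044 to -0.008 with 1 library left out. By construction fewer genes enter at 5 RPKM or more, and centring removes the median of all genes. The cause of the other shifts was not tested.

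The labels do not say that a replicate number marks a shared batch. Same-numbered libraries of control and Glis3 knockdown had deviations with r = -0.372 across 10829 genes, those of control and CD133 knockdown -0.428, and those of the knockdowns 0.032; genes are not independent replicates. With the replicate number as a block, the CD133 knockdown had 1 factor (Eef1b2, with Eef1a1, Eef1g and Eef2 no longer called) and 0 synthetases past the threshold, and the Glis3 knockdown 1 and 0. A block with the control numbers crossed, which pairs libraries alike in Y-linked RNA and was added after the data were seen, called 1 factor and 0 synthetases in the Glis3 knockdown and 5 and 5 in the CD133 knockdown, where 2 of the 5 elongation factors fell.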
